A study of Mus musculus with 48 samples.

Results

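In a mouse study of liver spheroids grown in the eye, 10 genes that mark macrophages and leukocytes in general were followed, namely Csf1r, Tyrobp, Adgre1, Lyz2, Fcgr1, Cd14, Mrc1, Cd163, Laptm5 and Ptprc. The 10 were chosen by name out of 46517 genes in the count table, each matched to 1 gene row by its symbol, and each was compared across 5 groups of samples and in each explant against a calculated mixture of iris and liver. Spheroids, small balls of primary liver cells enriched for hepatocytes, were placed in the anterior chamber of the eye (ACE), where they sat on the iris and engrafted. The 5 explants were engrafted spheroids taken out with the surrounding iris 2 months after transplantation. The other groups were 3 naive irises without explants, 3 pieces of endogenous liver from donor mice, 3 preparations of isolated primary hepatocytes from donor mouse livers, and 2 samples of spheroids kept in vitro. All samples are labelled as wild-type albino mice of the strain C57BL/6N, and the study used adults of both sexes. Donor and recipient cells thus carry the same label, and which of them made a transcript cannot be told apart here. The labels do not say which mice or cultures the samples came from, so p-values measure the spread between these samples.

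Macrophages are phagocytic leukocytes that live in nearly every tissue, and the liver holds a resident population, the Kupffer cells, along its sinusoids. Their survival depends on the receptor encoded by Csf1r, which binds the ligands CSF1 and IL34, and their gene program is driven by transcription factors such as PU.1, the product of Spi1. The genes described here cover this lineage from its growth factor receptor and signalling adaptor to its surface markers, scavenger receptors and lysosomal products, and end with genes that all leukocytes share. The iris has macrophages of its own, so an explant that contains iris carries these transcripts whether or not the graft does.

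Each sample was the sum of 3 technical libraries, with 5449589 to 6789648 counts in explants, 4596550 to 4881817 in irises, 3523171 to 3871404 in livers, 2718518 to 3573075 in hepatocyte preparations, and 3247327 and 3447643 in the spheroid samples. Over the 10 genes and all samples the variance between technical libraries was a median of 1.23 times that of counting alone, and the variance between explants was a median of 115 times. The authors had assigned explants 1, 2, 4, 5 and 6 an iris share of 82, 68, 81, 72 and 59%. These shares were solved from the deposited tables, and for explant 4 the deposited correction had subtracted the share from the iris mean where the other 4 multiplied by it, so only uncorrected values are used below. Hepatocyte markers in sum reached 1345 to 1602 TPM (transcript counts scaled by exon length and library total) in naive irises against 9124 to 9795 TPM in livers, and their part in the mixture was not tested. Liver 1 stood apart from livers 2 and 3 with a summed level of the 10 genes of 755 TPM against 277 and 383 TPM. In bulk tissue, fewer cells of a type and less RNA per cell cannot be told apart.

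On the mouse build GRCm38 with GENCODE annotation, Adgre1 lies at chr17:57358686-57483529, Lyz2 at chr10:117277334-117282274, Mrc1 at chr2:14229392-14332057, Cd163 at chr6:124304656-124330527, Fcgr1 at chr3:96282909-96293969, Tyrobp at chr7:30413788-30417577, Laptm5 at chr4:130913125-130936141 and Ptprc at chr1:138062861-138175708. Counts were summed over exons, and TPM divides them by the exon length, which ran from 564 bases for Tyrobp to 18313 bases for Ptprc. The exons of Csf1r share bases with Hmgxb3, and reads there counted for both genes without regard to strand, so Csf1r values are uncertain to that extent. Lyz2 has a near-identical copy, Lyz1, which had 10 to 25 counts per explant against 1017 to 2056 counts for Lyz2.

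The letters upstream of the start show what was searched for a binding core of PU.1, GAGGAA on either strand. RefSeq windows of 250 bases before the start site (build GRCm38.p6) were at hand for 6 of the 10 genes. The core was in windows of Fcgr1, Laptm5, Mrc1 and Ptprc and in neither that of Cd163 nor that of Lyz2. These were 4 of 7 windows, as a second Ptprc window lacked it, while 23.3% of all 32851 windows held it. The Laptm5 match and both Ptprc windows lay inside the GENCODE gene spans given above. The windows of a gene that moved strongly between groups (Fcgr1), of the most abundant member (Lyz2) and of the pair that followed the others least (Mrc1 and Cd163) are shown in gene orientation up to the base before the GENCODE gene start, with the core in capitals.
Fcgr1 (chr3:96293970-96294219, minus strand): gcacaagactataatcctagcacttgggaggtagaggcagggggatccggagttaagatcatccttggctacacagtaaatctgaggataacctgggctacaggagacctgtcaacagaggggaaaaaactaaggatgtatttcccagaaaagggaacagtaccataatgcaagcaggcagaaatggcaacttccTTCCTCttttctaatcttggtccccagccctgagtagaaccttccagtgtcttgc
Lyz2 (chr10:117282275-117282522, minus strand): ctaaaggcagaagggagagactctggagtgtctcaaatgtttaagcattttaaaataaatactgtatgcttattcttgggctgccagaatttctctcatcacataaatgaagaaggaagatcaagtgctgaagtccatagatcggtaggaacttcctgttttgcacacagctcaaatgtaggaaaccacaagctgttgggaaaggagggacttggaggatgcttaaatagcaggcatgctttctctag
Mrc1 (chr2:14229164-14229391, plus strand): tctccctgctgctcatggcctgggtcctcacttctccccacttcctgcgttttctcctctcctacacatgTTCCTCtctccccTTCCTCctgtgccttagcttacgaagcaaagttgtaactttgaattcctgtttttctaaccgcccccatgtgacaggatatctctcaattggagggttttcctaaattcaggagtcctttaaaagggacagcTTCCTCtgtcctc
Cd163 (chr6:124304401-124304650, plus strand): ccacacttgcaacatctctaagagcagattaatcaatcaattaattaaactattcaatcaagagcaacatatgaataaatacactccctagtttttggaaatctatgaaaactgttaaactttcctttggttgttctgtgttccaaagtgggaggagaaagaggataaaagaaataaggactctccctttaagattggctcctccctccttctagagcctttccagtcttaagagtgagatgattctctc
In Fcgr1 the core stood 55 bases before the start site as its reverse complement, TTCCTC. Mrc1 held it 3 times, also as the reverse complement. A match describes the letters of the window, and nothing about binding was measured.

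Macrophage and leukocyte genes were higher in the explants than in irises, and 5 of 10 were called, a call being an adjusted p below 0.05 in edgeR's quasi-likelihood test with a log2 fold change over 1. Those were Adgre1, Laptm5, Fcgr1, Lyz2 and Cd14, none was lower (0.316% of all genes were), and 6.16% of all 16764 genes tested were called higher. The median log2 fold change was 1.39 over the 10 genes and 0.01 over all genes. With any 1 of the 3 irises left out, none of the 10 was called by edgeR, although 7 to 8 of them still had an unadjusted p below 0.05 and 3.21 to 3.50% of all genes were called higher. Without explant 2, Lyz2 alone was called, without explant 5 the count was 3, and without explant 4 it was 8. DESeq2 called 7 and limma-voom called 1. In the same order from explant 2 on, 4.95, 5.62, 7.21, 7.27 and 3.23% of all genes were called higher.

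**Figure D1:**
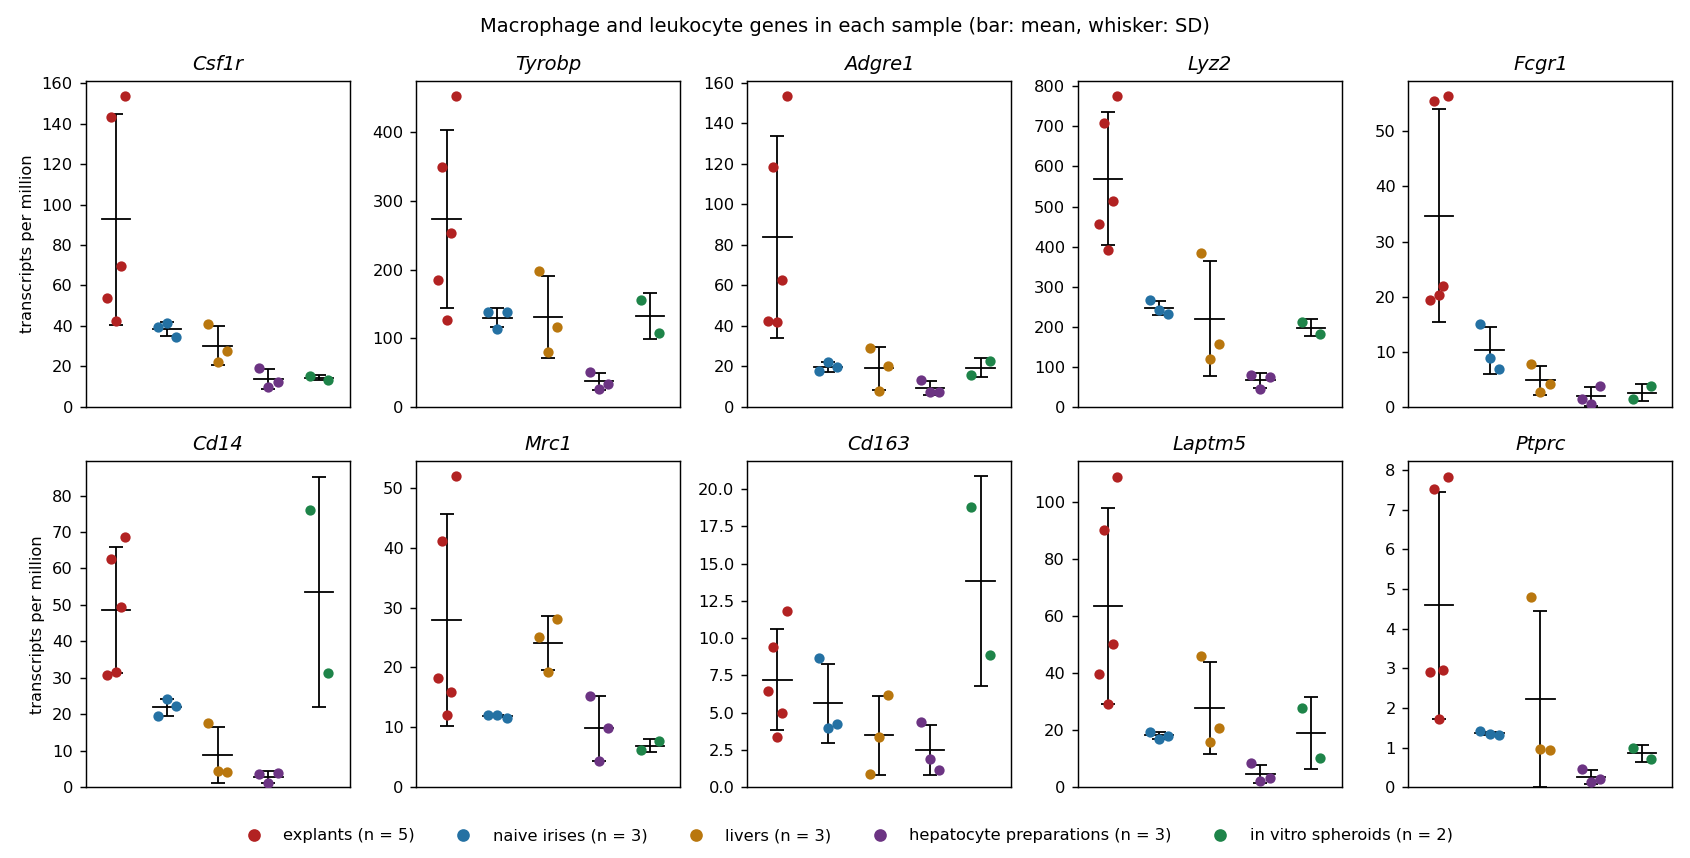
Levels of the 10 genes in TPM in each sample, 1 panel per gene with its own axis from 0, with a dot per sample, a bar at the group mean and a whisker of 1 SD. Explants span a wide range in every panel, Cd14 and Cd163 reach their highest values in an in vitro spheroid sample, and hepatocyte preparations have the lowest mean in 9 of 10 panels.

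Csf1r, the receptor of the macrophage growth factors CSF1 and IL34, had 53.9, 143, 42.3, 69.7 and 154 TPM in explants 1, 2, 4, 5 and 6. It had 39.4, 41.4 and 34.8 TPM in irises and 40.8, 22.2 and 27.5 TPM in livers. Every explant was thus above every iris and every liver, explant 4 by a narrow margin. The log2 fold change over irises was 1.403 (SE 0.47, adjusted p = 0.0858), which was not called. Tyrobp, the adaptor that passes signals of Fc and TREM receptors into the cell, had 185, 350, 127, 253 and 454 TPM in explants, 138, 114 and 138 TPM in irises and 198, 79.9 and 116 TPM in livers. Explant 4 lay among the irises and explants 1 and 4 below liver 1. Its log2 fold change over irises was 1.21 (SE 0.41, adjusted p = 0.0916), also not called.

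Adgre1 encodes F4/80, the classic surface marker of mouse macrophages, and had the largest fold change of the 10 over irises. Its level was 42.4, 118, 42, 62.7 and 153 TPM in explants, 17.6, 22.4 and 19.4 TPM in irises and 29.2, 7.81 and 20.1 TPM in livers. No explant overlapped an iris or a liver. The log2 fold change over irises was 2.22 (SE 0.52, adjusted p = 0.0248). Lyz2, the lysozyme of macrophages and neutrophils, was the most abundant of the 10, at 570 ± 165 TPM (SD, n = 5) in explants and 246 ± 17.9 TPM (SD, n = 3) in irises. Its explant values were 457, 708, 392, 515 and 776 TPM, all above the highest iris (266 TPM) and the highest liver (385 TPM), explant 4 by little. The log2 fold change over irises was 1.33 (SE 0.26, adjusted p = 0.0118), and this gene had the smallest adjusted p of the 10.

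Fcgr1, the high-affinity receptor for IgG, had 19.3, 55.5, 20.4, 22 and 56.3 TPM in explants. Irises had 15.1, 8.92 and 6.79 TPM and livers 7.80, 2.72 and 4.07 TPM. All explants were above both tissues, explants 2 and 6 far above the other 3. Its log2 fold change over irises was 1.89 (SE 0.53, adjusted p = 0.0468). Cd14, the co-receptor that hands endotoxin to TLR4, had 30.8, 62.5, 31.7, 49.3 and 68.7 TPM in explants, 19.5, 24.1 and 22.4 TPM in irises and 17.7, 4.48 and 4.19 TPM in livers. Its explants again overlapped neither tissue, and the log2 fold change over irises was 1.27 (SE 0.34, adjusted p = 0.0390).

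Mrc1, which encodes the mannose receptor CD206 of resident macrophages and is also expressed by liver sinusoidal endothelial cells, had 18.3, 41.2, 12.1, 15.9 and 52.1 TPM in explants. Irises had 12.1, 12 and 11.6 TPM and livers 25.2, 19.2 and 28 TPM. Only explants 2 and 6 were above the livers, explants 1, 4 and 5 were below every liver, and explant 4 was level with the irises. The log2 fold change over irises was 1.37 (SE 0.52, adjusted p = 0.121). Cd163, the receptor for haemoglobin and haptoglobin complexes, had 6.48, 9.37, 3.40, 4.94 and 11.8 TPM in explants, 8.68, 4.00 and 4.22 TPM in irises and 0.893, 3.35 and 6.16 TPM in livers. The 3 groups overlapped, with 7 to 135 counts per sample behind these values, and the log2 fold change over irises was 0.48 (SE 0.45, adjusted p = 0.540).

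Laptm5, a lysosomal membrane protein of blood cells, had 39.5, 89.9, 29.1, 50.2 and 109 TPM in explants, 19.5, 16.9 and 17.9 TPM in irises and 46, 16 and 20.9 TPM in livers. Explants were above all irises, and explants 1 and 4 were below liver 1. The log2 fold change over irises was 1.94 (SE 0.47, adjusted p = 0.0283). Ptprc encodes CD45, the phosphatase on all leukocytes, and had the lowest TPM of the 10 in every group. It had 2.91, 7.51, 1.73, 2.95 and 7.83 TPM in explants, 1.41, 1.33 and 1.32 TPM in irises and 4.79, 0.961 and 0.936 TPM in livers, with liver 1 above explants 1, 4 and 5. The log2 fold change over irises was 1.89 (SE 0.56, adjusted p = 0.0561), not called.

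The mixture comparison asks what remains once the iris in each explant is allowed for. The expected level of a gene was the explant's iris share times the mean of the irises plus the rest times the mean of the livers. Above it, 6 of 10 genes were called by limma, Adgre1, Fcgr1, Laptm5, Cd14, Lyz2 and Csf1r, against 2.13% of all 20210 genes called higher, and none was lower (2.99% of all genes were). On the scale of log2(TPM + 1), which understates the change of low genes such as Ptprc, the mean difference was 1.84 for Adgre1 (SE 0.30, adjusted p = 0.00691), 1.70 for Fcgr1 (SE 0.30, adjusted p = 0.00872) and 1.402 for Laptm5 (SE 0.26, adjusted p = 0.0102). It was 1.29 for Cd14 (SE 0.22, adjusted p = 0.00821), 1.20 for Lyz2 (SE 0.15, adjusted p = 0.00348) and 1.14 for Csf1r (SE 0.30, adjusted p = 0.0316). Ptprc, with a difference of 0.95 (adjusted p = 0.0407), and Tyrobp, with 0.93 (adjusted p = 0.0356), passed on p but not on size. Mrc1 with 0.62 (adjusted p = 0.140) and Cd163 with 0.34 (adjusted p = 0.324) did not pass. The median was 1.17 over the 10 genes and 0.04 over all genes, and the number called stayed between 5 and 8 in the 21 alternatives run. Over all genes these alternatives called 1.31 to 2.81% higher, except for 18% with no limit on the fold. Adgre1, Fcgr1, Laptm5 and Lyz2 were called in each of them, Csf1r was lost without explant 2, 5 or 6 and with no filter on low values, and Ptprc and Tyrobp were added without explant 4, without liver 1 or with hepatocyte preparations as the second tissue. Using in vitro spheroids in place of liver as the second tissue lost Cd14, whose level there was high.

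Taken explant by explant, the ratio of observed to expected TPM ordered the 5 explants in nearly the same way for every gene. Explant 6 had the highest level of all 10 genes and explant 2 the next, while explant 4 was lowest for 8 genes and explant 1 for the other two. The median ratio over the 10 genes was greatest for explant 6 (4.26), followed by explant 2 (3.76), explant 5 (2.05), explant 1 (1.73) and explant 4 (1.302). In explant 4 only 7 genes were above the mixture, with Mrc1 at 0.851, Cd163 at 0.650 and Tyrobp at 0.977 of the expected level. All 5 explants were above the mixture for 7 of 10 genes, Csf1r, Adgre1, Lyz2, Fcgr1, Cd14, Laptm5 and Ptprc, against 23.8% of all genes tested. Adgre1 and Fcgr1 were the genes with more than 2 times the expected level in every explant, with ratios of 2.14 to 7.87 and 2.08 to 6.998.

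**Figure D2:**
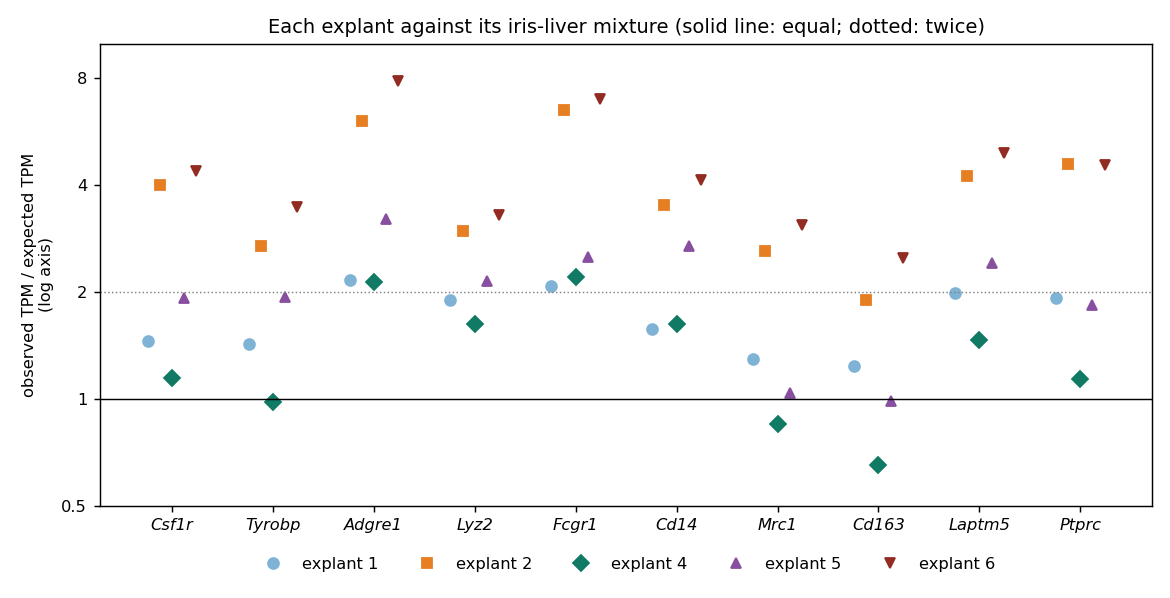
Ratio of observed to expected TPM for each gene (log axis), with 1 symbol per explant, a solid line at equality and a dotted line at a ratio of 2. Explants 2 and 6 are the upper pair for every gene, and at least 1 explant lies under the line of equality for Tyrobp, Mrc1 and Cd163.

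The explants with less iris had more of these transcripts, apart from the order of explants 1 and 4. Explant 6 had an iris share of 59% and a summed level of the 10 genes of 1843 TPM, and explant 2 a share of 68% and 1586 TPM. Explant 5 followed with 72% and 1046 TPM, explant 1 with 82% and 857 TPM and explant 4 with 81% and 702 TPM. The mixture itself hardly moved, since the sums expected were 491 to 498 TPM across the same explants. With 5 explants no correlation was computed. If the iris part were exactly the mean of the naive irises, the rest of the explant would need 136 to 346 TPM of Adgre1, against 19 ± 10.7 TPM (SD, n = 3) in liver, and 52.2 to 152 TPM of Fcgr1 against 4.87 ± 2.63 TPM. For Mrc1 the same calculation gave 13 to 110 TPM, which brackets the liver mean of 24.1 ± 4.50 TPM. For Cd163 in explant 4 it gave -6.14 TPM, an impossible level, so an iris part exactly at the mean did not hold there.

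**Figure D3:**
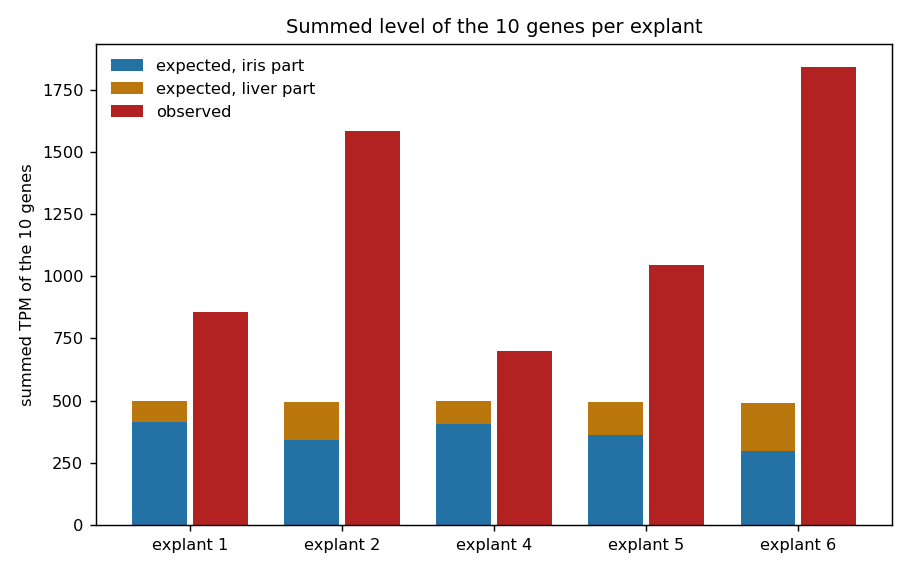
Summed TPM of the 10 genes in each explant (right bars) beside the sum expected from its iris share (left bars, split into the iris and liver parts), on an axis from 0. The expected bars are nearly level at 491 to 498 TPM while the observed bars run from 702 to 1843 TPM.

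A level above both tissues cannot come from any proportion of the 2, so it needs no iris share. Every explant was above every iris and every liver for 5 genes, Adgre1, Csf1r, Lyz2, Cd14 and Fcgr1, where 2.45% of all genes showed this. In the joint edgeR fit, with the larger of the pair of p-values adjusted over 16793 genes, 0 of 10 were called above both tissues (3 had an unadjusted p below 0.05), against 0.214% of all genes, and none below both (0.0238%). Fcgr1 came nearest, with log2 fold changes of 1.86 over irises (SE 0.51) and 2.05 over livers (SE 0.55) and an adjusted p of 0.0512. Adgre1 was 2.20 over irises and 1.37 over livers (adjusted p = 0.176), and Cd14 was 1.24 and 1.69 (adjusted p = 0.119). DESeq2 called these 3 genes and limma-voom none. The scale of the liver contrast depended on the normalisation, as the median of all genes was 0.19 with TMM factors and 0.82 with library size alone. On the latter Adgre1 was called (adjusted p = 0.0415), and Mrc1, which was 0.58 lower than in livers on the log2 scale by TMM, stood at 0.04. Leaving out liver 1 brought 2 calls, Lyz2 and Cd14, and leaving out explant 1, 4 or 5 brought 1, Fcgr1.

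The make-up of the 10 genes was compared as shares of their summed TPM. Lyz2 made up 49.1 ± 5.76% of their summed TPM in explants and 48.9 ± 1.26% in irises, and Tyrobp 22.1 ± 2.58% and 25.8 ± 2.44% (SD, n = 5 and n = 3). Adgre1 made up 4.95 to 8.32% in explants against 3.27 to 4.59% in irises and Laptm5 4.15 to 5.90% against 3.48 to 3.68%. Cd163 made up 0.473 to 0.756% against 0.821 to 1.62%, and each of these was without overlap with irises. All overlapped livers, at 2.82 to 5.25% for Adgre1, 5.45 to 6.09% for Laptm5 and 0.118 to 1.61% for Cd163. Adgre1 also overlapped hepatocyte preparations, at 4.79 to 7.50%. Adgre1 per unit of Csf1r was 0.787 to 0.998 in explants, above the 0.446 to 0.559 of irises and the 0.352 to 0.731 of livers and below the 1.04 and 1.69 of the spheroid samples. Mrc1 per unit of Csf1r was 0.229 to 0.339 in explants and 0.290 to 0.334 in irises, which overlap, and 0.617 to 1.02 in livers. Cd163 per unit of Csf1r was 0.0653 to 0.120 in explants, under the 0.655 and 1.23 of the spheroid samples. The shares and ratios were not tested, and they carry the uncertainty of Csf1r given above.

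**Figure D4:**
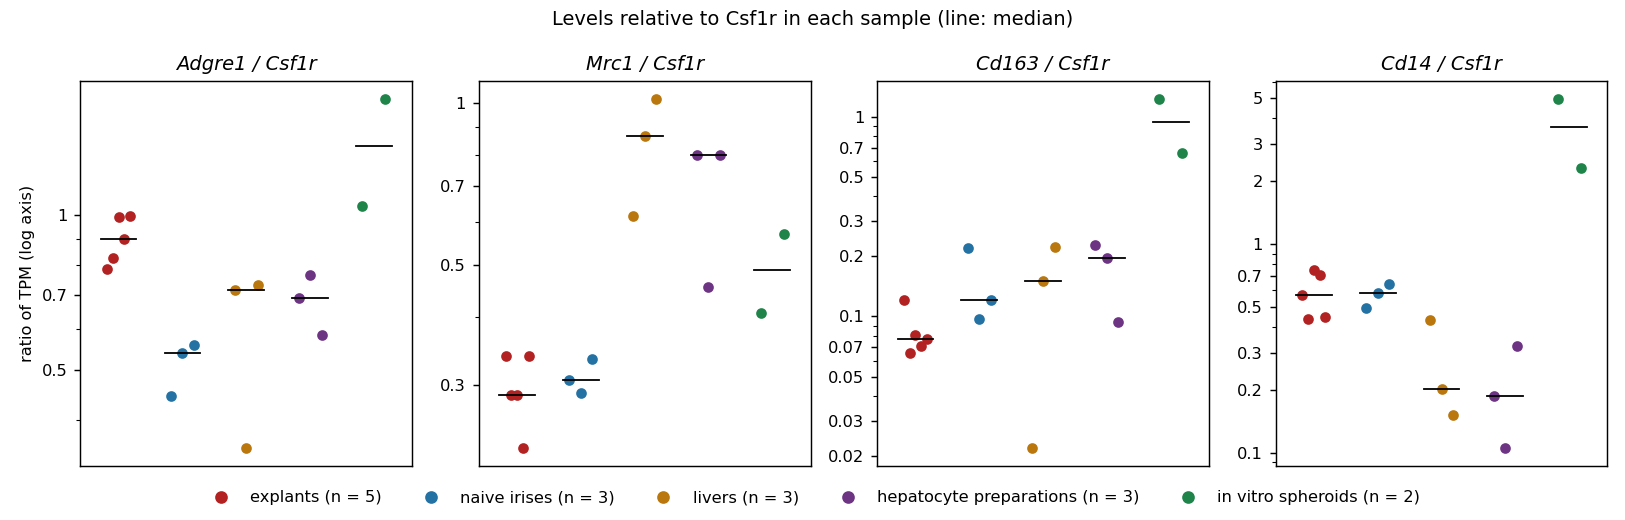
TPM of Adgre1, Mrc1, Cd163 and Cd14 divided by that of Csf1r in each sample (log axes, 1 dot per sample, line at the median). Explants lie above irises and livers for Adgre1 and with the irises, under the livers, for Mrc1, while both spheroid samples lie above every explant for Adgre1, Cd163 and Cd14.

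The tissues of the mixture were compared with each other, since a gene with unlike levels there makes the expected value depend on the share. Livers were higher than irises for Mrc1 (log2 fold change 1.91, SE 0.15, adjusted p = 4.52e-06), Ptprc (1.57, SE 0.57, adjusted p = 0.0325) and Laptm5 (1.47, SE 0.32, adjusted p = 0.00279) by edgeR, so 3 of 10 genes rose against 22.1% of all genes, and none fell against 29.8%. The calls of Ptprc and Laptm5 rested on the scaling, because the median of all genes was -0.11 with TMM factors and -0.80 with library size alone, and with the latter only Mrc1 was called. Without liver 1, Mrc1 was called higher and Cd14 lower. Without liver 2, Tyrobp and Adgre1 were called as well, and Ptprc was lost when any iris was left out.

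The hepatocyte preparations, which were enriched rather than pure, carried less of these transcripts in sum than livers. Hepatocyte preparations had 97.97 to 196 TPM of the 10 genes in sum against 277 to 755 TPM in livers, and 7 genes were below every liver in every preparation, where 23.8% of all genes were. Lyz2 had 79.1, 43.9 and 75.3 TPM, Laptm5 8.32, 2.31 and 3.09 TPM and Ptprc 0.459, 0.130 and 0.196 TPM in the preparations. Of the 9 genes that passed the filter on low counts, which left out Cd14 with 2 to 8 counts per preparation, edgeR called 1 lower, Laptm5 (log2 fold change -2.41, SE 0.52, adjusted p = 0.0471), against 2.31% of all genes called lower. Tyrobp was at -1.66 (SE 0.37, adjusted p = 0.0504), Lyz2 at -1.58 (SE 0.42, adjusted p = 0.0753) and Ptprc at -2.87 (SE 0.78, adjusted p = 0.0772), none of them called. The call of Laptm5 was lost when any liver or hepatocyte preparation 2 or 3 was left out, and without preparation 1 it stood among 4.

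In vitro spheroids, which were made from such hepatocyte preparations, had 531 and 390 TPM of the 10 genes in sum, above the 97.97 to 196 TPM of the preparations. Cd14 had 75.9 and 31.2 TPM in spheroids and 3.56, 1.01 and 4.00 TPM in preparations, and rose by 3.84 on the log2 scale (SE 0.52, adjusted p = 0.00229, edgeR). Cd163 had 18.8 and 8.84 TPM against 4.36, 1.89 and 1.15 TPM and rose by 2.09 (SE 0.49, adjusted p = 0.0196). Tyrobp rose by 1.48 (SE 0.32, adjusted p = 0.0135) and Lyz2 by 1.24 (SE 0.25, adjusted p = 0.0105). These 4 of 10 compare with 8.13% of all genes called higher, and none fell against 9.11%. Both spheroid samples were above every preparation for 7 genes, where 44.2% of all genes were. Csf1r did not pass, at 15.3 and 13.5 TPM in spheroids and 19.1, 9.60 and 12.3 TPM in preparations (log2 fold change -0.26, adjusted p = 0.558), and Mrc1 had 6.20 and 7.71 TPM against 15.3, 4.37 and 9.88 TPM (log2 fold change -0.82, adjusted p = 0.244). Adgre1 stood at 15.9 and 22.8 TPM against 13.2, 7.35 and 7.20 TPM (log2 fold change 0.75, adjusted p = 0.162). Without spheroid sample 1 Cd14 alone was called, and without preparation 3 Cd14 and Lyz2 were. Without preparation 2 Cd163 was not called and Mrc1 was called lower.

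**Figure D5:**
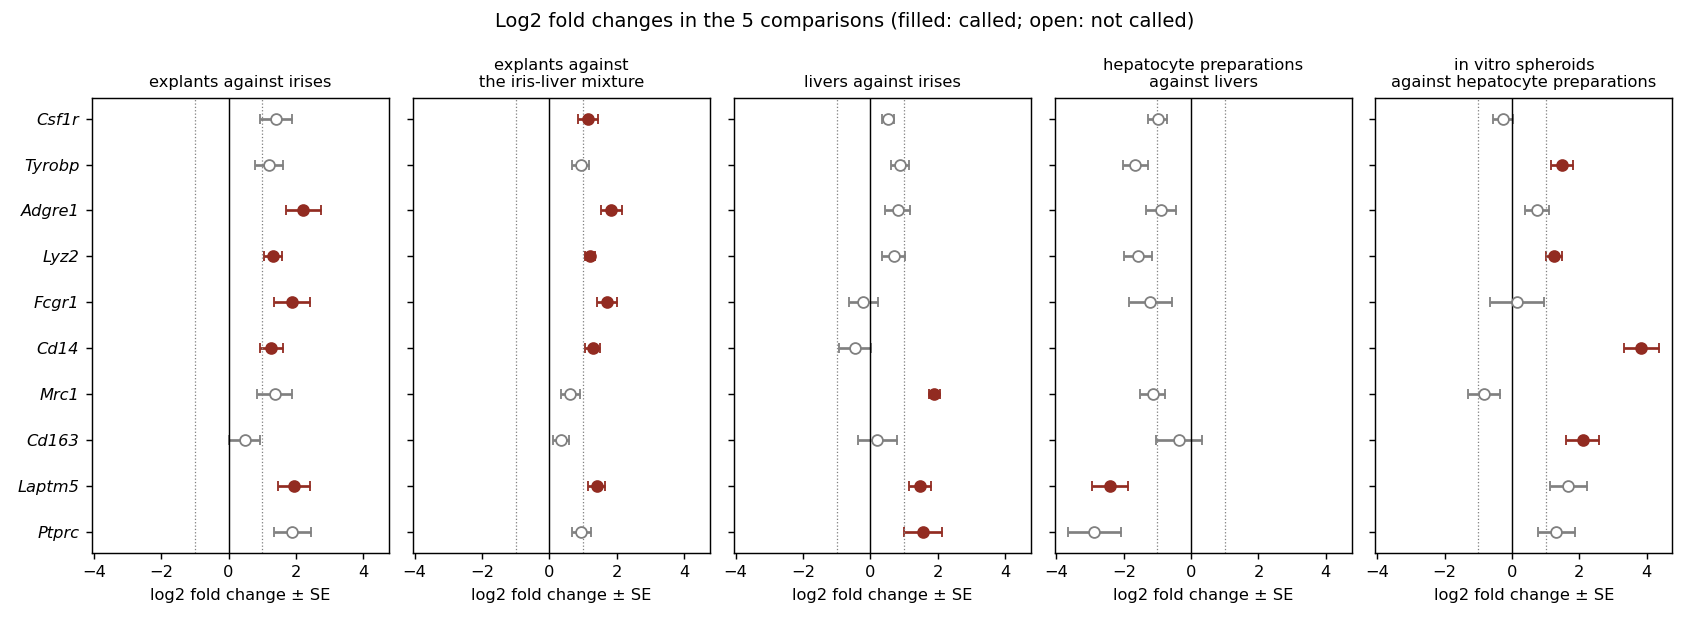
Log2 fold change with its SE for each gene in 5 comparisons, filled where called and open where not, with dotted lines at -1 and 1. The mixture panel is on the log2(TPM + 1) scale and the others are edgeR estimates, and Cd14 has no point for hepatocyte preparations against livers because it did not pass the filter on low counts.

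By group mean, explants had the highest level for 8 of 10 genes and in vitro spheroids for Cd14 and Cd163, while hepatocyte preparations had the lowest for 9. Neighbouring groups often overlapped. Adgre1 was separated between explants and irises, at means of 83.8 and 19.8 TPM, and the next steps through spheroids (19.4 TPM), livers (19 TPM) and hepatocyte preparations (9.24 TPM) all overlapped. Tyrobp had means of 130, 131 and 132 TPM in irises, livers and spheroids, with overlapping samples. In the edgeR fit its level in livers was 0.88 over that in irises on the log2 scale (adjusted p = 0.0164), which passed on p but not on size. For Cd163 no pair of neighbours in the order was free of overlap.

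The genes most like the 10 across the samples were sought among 19450 genes with a mean of at least 1 TPM. That number includes the 10, which were left out of the ranking. The measure was Pearson's r between log2(TPM + 1) and the mean standardised profile of the 10 over 16 samples, which fall into 5 groups. Fermt3, an integrin activator of blood cells, had the highest r (0.98), followed by the complement genes C1qb (0.98) and C1qa (0.98), and Spi1, which encodes PU.1, also had 0.98. Myo1f, Ms4a6c, Ncf1, Cyth4, Nrros and Cd53 completed the first 10, the last with 0.96. Spi1 had a mean of 8.24 TPM in explants, 3.14 in irises, 3.23 in livers, 0.469 in hepatocyte preparations and 2.31 in spheroids. Among the 10 genes themselves, Cd163 (0.53), Mrc1 (0.75) and Cd14 (0.83) had the lowest r with the profile they are part of.

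The wider program was read from gene lists written with earlier results of these data known. Of 6 macrophage transcription factors, Ikzf1 (log2 fold change 1.96, adjusted p = 0.00708) and Irf5 (1.14, adjusted p = 0.0244) rose in explants over irises. Against the mixture limma called 0 of 6, although all 6 had an unadjusted p below 0.05, with Spi1 at 0.95 (adjusted p = 0.0600). Of 5 CSF ligands and receptors, Csf3r, the granulocyte growth factor receptor, rose over irises (3.34, adjusted p = 0.0278) and over the mixture (1.33, adjusted p = 0.0144). The CSF1R ligands passed on p but not on size, with Csf1 at 0.44 (adjusted p = 0.0179) and Il34 at -0.89 (adjusted p = 0.000515) over irises, and Il34 had a mean of 70.4 TPM in explants and 139 TPM in irises. Of 8 Fc receptors, adaptors and kinases, Fcgr4, Fcgr3 and Trem2 rose in both comparisons, Fcgr4 most (2.77 over irises, adjusted p = 0.0343). Of 8 genes of endotoxin sensing, Lbp, a plasma protein made by hepatocytes, rose over irises (1.16, adjusted p = 0.0361) and Tlr4 stood at 0.23. Against the mixture limma called 0 of 8, with 7 at an unadjusted p below 0.05.

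Among 11 genes of the macrophage lysosome and phagocytosis, Ctss, C1qb, C1qa and Mpeg1 rose over irises, Mpeg1 most (2.68, adjusted p = 0.00757), and C1qc joined them against the mixture. Of 12 general leukocyte genes 5 rose over irises and 7 over the mixture, where 6.16 and 2.13% of all genes did. Cybb, the catalytic subunit of the phagocyte oxidase, was at 1.70 over the mixture (adjusted p = 0.00621, limma). The list medians over irises were 1.37 and 1.71 against 0.01 for all genes. In hepatocyte preparations against livers, 4 of the 11 and 5 of the 12 fell, where 2.31% of all genes did. In spheroids against preparations 6 of 11 and 4 of 9 tested rose, where 8.13% of all genes did. Cd68, a lysosomal macrophage marker, rose by 2.33 there (adjusted p = 0.000814).

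Markers of particular leukocytes were measured beside these. Of 8 monocyte and granulocyte genes, 2 could be tested against irises and 5 against the mixture. Itgam, an integrin of myeloid cells, rose over irises (1.92, adjusted p = 0.0189), Itgam and Ccr2 rose over the mixture and S100a9 fell below it. The list summed to 15.5 to 39.2 TPM in explants and 7.69 to 9.14 TPM in irises, and Mpo had 0 TPM in every explant. T, B and NK cell genes summed to 12.8 to 65.2 TPM in explants, 6.03 to 13.4 TPM in irises and 16.6 to 87.2 TPM in livers. Of 3 tested over irises edgeR called 0 (3 at an unadjusted p below 0.05, 1 called by DESeq2), and of 5 tested over the mixture limma called 0 (2 at such a p). Of these 2, Cd3e lay above the mixture (1.16, adjusted p = 0.0869). Cd79a lay below it (-0.82, adjusted p = 0.0458), which passed on p but not on size. Mast cell genes summed to 74.9 to 127 TPM in explants and 36.4 to 114 TPM in irises, and edgeR and DESeq2 called 0 of 4 over irises (1 at an unadjusted p below 0.05). Over the mixture limma called 0 of 4 (4 at such a p, all with positive differences), and Tpsb2, a mast cell tryptase, was at 0.97 (adjusted p = 0.0178), which passed on p but not on size. Dendritic cell genes summed to 19.3 to 31.4 TPM and 13.1 to 37.8 TPM, and edgeR and DESeq2 called 0 of 4 tested over irises (3 at such a p), and limma 0 of 3 over the mixture (1 at such a p). The part of these cells in the levels of the 10 genes was not tested.

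Of 6 Kupffer cell genes, Clec4f, Cd5l and Marco fell below the mixture, and Cd5l rose over irises (5.10, adjusted p = 0.0148). Clec4f, whose expression marks Kupffer cells, had a mean of 1.497 TPM in explants and 85.1 TPM in livers. Its mean was 48.6 TPM in hepatocyte preparations and 93.8 TPM in spheroids. Sinusoidal endothelial genes, which share Mrc1 with macrophages, were also under the mixture, with 4 of 5 lower and sums of 4.93 to 21.3 TPM in explants against 218 to 277 TPM in livers. Hepatocyte genes rose over irises for 7 of 7. Iris genes such as Pax6, at a mean of 161 TPM in explants and 200.2 TPM in irises, were not called against either by edgeR or limma (4 and 3 of 6 at an unadjusted p below 0.05). All 4 lens crystallin genes fell in explants, with sums of 8.999 to 97.05 TPM against 131 to 474 TPM in irises, so the naive irises held more lens transcript.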

How the data were processed

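Mouse tissue and cell samples were profiled with Smart-seq3 RNA sequencing, as 16 samples of 3 technical libraries each. Per the labels and the file headers, the authors aligned reads with TopHat2 to mm10, removed duplicates by UMI-tools, and deposited exon counts per GENCODE gene made with featureCounts 1.4.6-p5, without strand and with reads counted for every gene they overlap. The deposited TPM table was recomputed from the counts and equalled it for 100% of values within 1e-06. The deposited table of corrected averages, whose explant scores the authors made by subtracting the iris part of each TPM and dividing by the rest, supplied gene symbols and the iris shares. ERCC spike-in rows (92 rows, 418 counts in all) were left out.

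Technical libraries were summed. Counts were tested with edgeR 4.0.16 (R 4.3.3; filterByExpr, TMM, quasi-likelihood F-test) within the groups compared, and p-values were adjusted by Benjamini-Hochberg over all genes tested. The mixture was tested with limma 3.58.1 on the difference in log2(TPM + 1) between each explant and its expected level, for genes with a mean of at least 1 TPM, taking the iris and liver means as fixed. A call needed an adjusted p below 0.05 and a log2 fold change over 1. DESeq2 1.42.0, limma-voom, other scalings, filters, iris shares and left-out samples were alternatives, and every test was first run on simulated data. The named genes were the 10 chosen, the 10 most like them, and list genes called in a comparison (all when at most 5, otherwise those with the largest and smallest changes). Members, lists and tests were chosen with earlier results of these data known. Total counts per sample, given in the report, set the counting error, while the SEs and p-values of the fits to counts also cover the spread between samples. Those of the mixture test cover the spread between explants but not that between irises or between livers. Sequences were read from RefSeq windows (GRCm38.p6), which were at hand for 6 of the 10 genes. Some results for list genes are not reported here.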

Additional observations from a re-analysis of the deposited data

How the results depend on the processing

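Alternatives that left a sample out are given as lowest and highest counts of the 10 genes called. Between explants and irises they gave 0 to 8, between livers and irises 2 to 5, between hepatocyte preparations and livers 0 to 4, and between spheroids and hepatocyte preparations 1 to 6. Above both tissues they gave 0 to 2, and above the mixture 5 to 8. Over all genes they called 3.21 to 7.21% higher between explants and irises. Between livers and irises it was 21.3 to 22.4% higher and 28.8 to 31.3% lower. Hepatocyte preparations against livers had 0.0313 to 2.66% lower. Spheroids against preparations had 5.6 to 8.07% higher and 6.05 to 8.52% lower. Above both tissues the share was 0.0461 to 0.345%, and above the mixture 1.63 to 2.54%. Of the other settings, limma-voom called 1 between explants and irises and 0 between hepatocyte preparations and livers, where 6 had an unadjusted p below 0.05. Of all genes limma-voom called 3.23% higher in the first of these comparisons and 0.0899% lower in the second. Above both tissues, 1 gene was called with RLE factors, with library size alone, without the filter, with all 5 groups in 1 fit and with library a alone, and 3 with DESeq2. The shares of all genes there were 0.18 to 0.345%, and 0.423% with DESeq2. Between livers and irises, library size alone called 1 and no limit on the fold called 5. Of all genes, 12.8% were higher and 44% lower with the former, and 34.5% and 39.1% with the latter. Between hepatocyte preparations and livers, library size alone called 2, no filter 5, DESeq2 5, all groups in 1 fit 4 and library a alone 0. In the same order, 3.38, 3.95, 4.33, 5.41 and 1.39% of all genes were called lower. The causes were not tested.

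Deviations of same-numbered samples from their group means had r from -0.13 to 0.13. Explants, livers and preparations each matched best the spheroid sample of their own number (r from 0.03 to 0.13). Other pairs of groups often matched best at another number. With 2 to 5 samples per group, such r cannot tell whether samples shared a donor. The labels do not say, and the numbers were not taken to pair samples except in a replicate block. The replicate block called 4 between explants and irises, 0 above both tissues, 3 between livers and irises, 5 between hepatocyte preparations and livers, and 5 between spheroids and preparations. Of all genes it called 4.9% higher in explants than irises and 0.0655% above both tissues. Livers had 21.8% higher and 29.8% lower than irises, and hepatocyte preparations 2.83% lower than livers. Spheroids had 7.28% higher and 8.92% lower than preparations.

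Over the 10 genes and all comparisons, 856 of 997 single-gene values kept their direction and side of the threshold, 57 lost a call, 64 gained one and 20 changed sign, none of them called. For the smaller of the folds over irises and livers these were Mrc1 at 0.036 with library size alone and Ptprc at -0.036 with library a alone, and, with samples left out in turn, Cd163 from -0.25 to 0.46, Tyrobp from -0.032 to 0.64 and Ptprc from -0.066 to 1.43. Against the mixture, Cd163 was at -0.22 with in vitro spheroids as the liver component. For livers against irises, Csf1r was at -0.15 and Cd163 at -0.49 with library size alone and Cd163 at -0.10 with limma-voom, and with samples left out Cd163 ran from -0.49 to 0.71 and Fcgr1 from -0.64 to 0.18. Likewise Cd163 ran from -1.04 to 0.36 in hepatocyte preparations against livers, and in spheroids against preparations Csf1r ran from -0.44 to 0.064 and Fcgr1 from -0.80 to 0.76. Low counts limit Ptprc, Fcgr1 and Cd14 in hepatocyte preparations, at 2 to 12 counts per sample.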
